A study of Oreochromis mossambicus with 6 samples.

Results

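Wnt pathway genes were examined in gill filaments of Mozambique tilapia (Oreochromis mossambicus) whose pituitary had been removed. A gene was included when its symbol in the table of counts began with wnt, fzd, axin, tcf7, lef1, ctnnb, dkk, sfrp, gsk3, rspo, dvl, znrf3 or rnf43, with lrp followed by 5 or 6, with lgr followed by 4, 5 or 6, or with apc2, or was apc itself. Of 65 genes with such a symbol, 62 had at least 10 counts summed over the 6 libraries and are described here, out of 24878 genes with that many counts. The remaining 3, wnt1, wnt3 and wnt8b, had totals of 4, 5 and 1 counts and were not tested. Among the 62 were 19 Wnt ligands, 10 Frizzled receptors, 2 Lrp co-receptors, 3 R-spondins, 3 Lgr receptors, 1 ubiquitin ligase, 7 secreted inhibitors, 4 Dishevelled genes, 6 genes of the destruction complex, ctnnb1, 2 other genes with a ctnnb symbol and 4 Tcf and Lef factors. None of the 65 genes had the symbol apc or rnf43.

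All 6 fish were hypophysectomized wild type males, and every fish, controls included, therefore lacked its own pituitary prolactin together with the other pituitary hormones. The oPrl group (n = 3) received repeated intraperitoneal injections of ovine prolactin at 5 μg per g body weight, and the vehicle group (n = 3) received saline. The fish were a subset of a larger experiment, were held in brackish water and were not fed. The hormone came from sheep, so that the comparison is one of replacement with a mammalian prolactin in fish without a pituitary.

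Wnt proteins are secreted ligands that bind Frizzled receptors together with the co-receptors Lrp5 or Lrp6. In the canonical branch, receptor binding engages Dishevelled and disables a destruction complex built on Axin, Apc and Gsk3, so that beta-catenin is no longer degraded and can act with Tcf and Lef factors on target genes. Dickkopf and Sfrp proteins block the signal outside the cell, R-spondins acting through Lgr receptors keep Frizzled at the cell surface, and other branches steer cell polarity without beta-catenin. In vertebrate epithelia the pathway is known for governing stem cell renewal, cell fate and tissue patterning.

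Libraries held between 30516271 and 32959492 counts with oPrl and between 21643589 and 35976655 with vehicle. Levels are given in CPM, each library's counts scaled to a common size by TMM, and are not corrected for gene length and are therefore compared only within a gene. Every log2 fold change sets oPrl over vehicle and comes with its standard error (SE), and adjusted p values come from edgeR's quasi-likelihood test over all 24878 genes. A gene is said to have risen or fallen when its adjusted p was under 0.05. The study's own thresholds, an adjusted p under 0.01 with an absolute log2 fold change over 1, are named where they are used. The tissue label was checked against gill markers, of which the ionocyte factor foxi3b had 157, 149 and 169.8 CPM in the oPrl fish against 162, 118 and 138 CPM in the vehicle fish, and the epithelial gene epcam had 1318 CPM or more in every library.

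Most Wnt pathway genes did not pass the test, whereas dkk1a and axin1 fell and axin2 and ctnnbl1 rose. The fall of dkk1a, which encodes a secreted inhibitor that binds Lrp5 and Lrp6, was 17.4-fold. The fall of axin1 was 2.12-fold and the rise of axin2 2.35-fold, so that the Axin scaffold genes of the destruction complex moved in opposite directions. In all, 2 of 62 members (3.23%) rose, compared with 3.28% of all genes tested, and 2 (3.23%) fell, compared with 2.83%. The share of changed members was thus near that of all genes. At the study's thresholds dkk1a alone was called, where 0.687% of all genes were called lower and 0.715% higher. DESeq2, the tool of the study, called 4 members at those thresholds, dkk1a, axin1, axin2 and fzd5, compared with 6.01% of all genes, and edgeR called none when any single library was left out. At an unadjusted p under 0.05, 9 members were higher (14.5%, compared with 11.6% of all genes) and 3 lower (4.84%, compared with 10.1%). DESeq2 at an adjusted p under 0.05 gave 5 members higher (8.06%, compared with 6.65%) and 2 lower (3.23%, compared with 6.68%), the same 4 genes and fzd2, fzd5 and ctnnbip1. With library totals in place of TMM as the scale, 1614 of all genes were higher and 548 lower in place of 815 and 705, and among the members 3 were higher and 2 lower. In whole filaments, fewer cells of a type and less RNA per cell cannot be told apart in any of these values.

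The median log2 fold change of the 62 members was 0.13, compared with 0.02 over all genes. Of the members, 41 were above 0 (66.1%, compared with 51.5% of all genes) and 21 below. With DESeq2's size factors 39 were above 0, and with library totals 48. In 11 members all oPrl libraries exceeded all vehicle libraries (17.7%, compared with 16.3% of all genes). In 5 members all oPrl libraries were below all vehicle libraries (8.06%, compared with 12.7%). The remaining 46 overlapped between the groups.

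**Figure D1:**
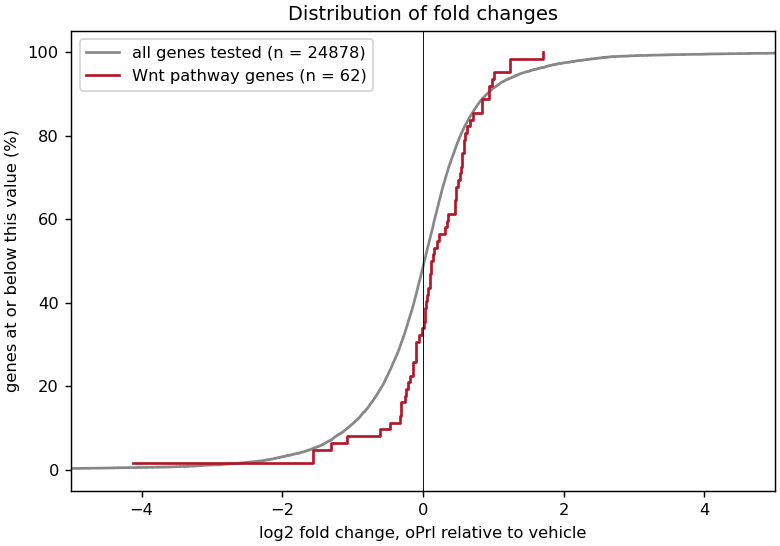
Cumulative share of genes (%, vertical axis) against the log2 fold change of oPrl relative to vehicle (horizontal axis), for the 62 Wnt pathway genes (red) and for all 24878 genes tested (grey), with medians of 0.13 and 0.02. The red curve is below the grey one at 0, since 66.1% of the members and 51.5% of all genes were above 0. The gene dkk1a stands alone at the far left.

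Among the secreted inhibitors, dkk1a (ENSONIG00000000368) had 3.52, 2.0 and 4.02 CPM in the oPrl fish against 33.0, 88.5 and 44.4 CPM in the vehicle fish. All 3 vehicle libraries lay far above the oPrl libraries, and vehicle replicate 2 was the highest of them. These levels rested on 119, 65 and 142 counts with oPrl and on 815, 3115 and 872 counts with vehicle. Means were 3.18 ± 1.05 CPM for oPrl (SD, n = 3) and 55.3 ± 29.3 CPM for vehicle (SD, n = 3). This gave a log2 fold change of -4.12 with an SE of 0.46 (adjusted p = 0.00500, edgeR), and DESeq2 gave an adjusted p of 9.98e-20. When single libraries were left out, it stayed between -4.38 and -3.63 and remained a fall in all 6 fits (adjusted p 0.0134 to 0.0286), although in none of them was it past the study's threshold of 0.01.

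The other 6 secreted inhibitors did not pass the test, and in each of them the groups overlapped. Their log2 fold changes ran from -0.25 for sfrp5 to 0.45 for sfrp2. Expression of dkk2, another Dickkopf gene, was 26.7, 41.0 and 21.8 CPM in the oPrl fish against 16.1, 28.1 and 36.7 CPM in the vehicle fish. For dkk3a the values were 17.2, 10.9 and 9.31 CPM in the oPrl fish against 15.3, 9.86 and 11.9 CPM in the vehicle fish, and for the gene listed as DKK3 they were 27.1, 18.8 and 26.1 CPM in the oPrl fish against 18.4, 21.1 and 35.3 CPM in the vehicle fish. In all 3 Dickkopf genes the fish of either group spread over much the same range. The secreted Frizzled-related genes encode proteins that bind Wnt ligands, and of these sfrp1a had 68.9, 79.2 and 71.7 CPM in the oPrl fish against 81.6, 88.5 and 72.8 CPM in the vehicle fish. The interval of the log2 fold change of sfrp1a was -0.48 to 0.19 (95%, edgeR), which leaves no room for a change of the size seen in dkk1a. For sfrp2, oPrl replicate 2 held 1 count, where oPrl replicates 1 and 3 reached 1.66 and 3.45 CPM, and its SE of 1.06 was correspondingly wide. The signs of dkk3a, DKK3 and sfrp1a, all near 0, turned under another scaling.

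Within the destruction complex, axin1 (ENSONIG00000001362), the scaffold that holds the complex together, had 39.9, 28.7 and 35.0 CPM in the oPrl fish against 74.0, 75.3 and 70.5 CPM in the vehicle fish. The vehicle libraries were close to each other, and the highest oPrl library lay well below the lowest of them. The log2 fold change was -1.08 with an SE of 0.16 (adjusted p = 0.0127, edgeR; 1.96e-07 by DESeq2). It remained between -1.20 and -0.97 with each library left out, but did not pass the test without oPrl replicate 3 (adjusted p = 0.0668) or without vehicle replicate 1 (adjusted p = 0.0661).

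The table holds a pair of genes with the symbol axin2, a second scaffold that in vertebrates is also a direct target of beta-catenin. The gene written axin2 (ENSONIG00000017163) had 31.9, 17.5 and 27.2 CPM in the oPrl fish against 8.91, 11.4 and 12.3 CPM in the vehicle fish. Its groups did not overlap, and oPrl replicate 2 was the lowest of the oPrl fish. The log2 fold change was 1.24 with an SE of 0.26 (adjusted p = 0.0369, edgeR; 0.000751 by DESeq2). The gene written AXIN2 (ENSONIG00000003426) had 30.1, 19.9 and 29.7 CPM in the oPrl fish against 16.2, 19.1 and 16.4 CPM in the vehicle fish. Its groups did not overlap either, but by less than 1 CPM, since oPrl replicate 2 lay just above vehicle replicate 2. The log2 fold change of 0.62, with an SE of 0.21, did not pass the test (adjusted p = 0.138, edgeR).

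With single libraries left out, the log2 fold change of axin2 stayed between 1.04 and 1.45, but it passed the test only without oPrl replicate 2 (adjusted p = 0.0166), and the adjusted p rose to 0.150 without vehicle replicate 1. Without oPrl replicate 2, AXIN2 passed as well, at a log2 fold change of 0.79 (adjusted p = 0.0426). Leaving out a library also lowered the number of genes past the threshold in the whole table, from 1520 to between 405 and 1401. A miss in the fits near the lower end is shared with many genes. Without vehicle replicate 3, however, 1401 genes passed while axin2 did not (adjusted p = 0.0688, edgeR). How far reads of the axin2 copies were split between them in the counting is not known.

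The balance between the Axin genes can be read within each library, where scaling cancels. The log2 ratio of axin2 to axin1 was -0.32, -0.71 and -0.37 with oPrl and -3.05, -2.73 and -2.52 with vehicle. The log2 ratio of AXIN2 to axin1 was -0.40, -0.53 and -0.24 with oPrl and -2.20, -1.98 and -2.10 with vehicle. These ratios were computed after the values of the genes had been seen and are given without a test. Both ratios were higher in every oPrl fish than in any vehicle fish. That separation was fixed beforehand, since all oPrl fish were below all vehicle fish in axin1 and above them in axin2 and AXIN2.

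The other genes of the complex did not pass the test. The kinase gene gsk3aa had 4.73, 4.73 and 4.02 CPM in the oPrl fish against 3.93, 3.21 and 1.83 CPM in the vehicle fish, without overlap, at a log2 fold change of 0.58 (adjusted p = 0.377, edgeR). For gsk3bb the groups overlapped, with a log2 fold change of 0.46 and an interval of -0.27 to 1.20. For apc2, a relative of the Apc scaffold, the log2 fold change was -0.31 with an SE of 0.39, and oPrl replicate 1 was the lowest library.

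**Figure D2:**
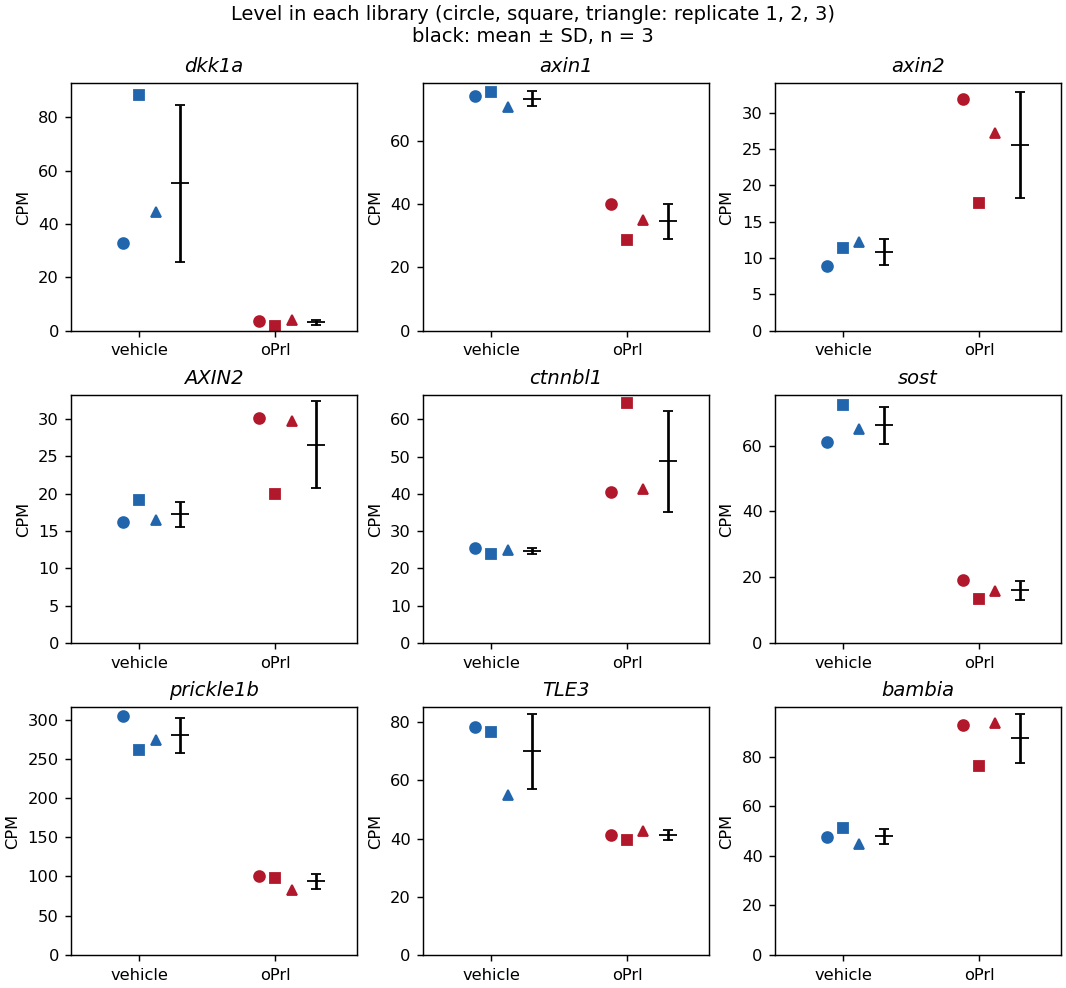
Level in CPM (vertical axes from 0) of the 4 Wnt pathway genes past an adjusted p of 0.05, of the second axin2 copy (AXIN2), and of the 4 other list genes past that threshold (sost, prickle1b, TLE3, bambia), in each vehicle (blue) and oPrl (red) library, with replicates 1, 2 and 3 as circle, square and triangle and the mean ± SD (n = 3) in black. In every panel the groups do not overlap, and the gap is narrow for AXIN2, where oPrl replicate 2 at 19.9 CPM sits just above vehicle replicate 2 at 19.1 CPM.

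Beta-catenin itself, encoded by ctnnb1 (ENSONIG00000007226), had 169, 189.9 and 160.0 CPM in the oPrl fish against 142, 158 and 145 CPM in the vehicle fish. The oPrl fish all exceeded the vehicle fish, yet the log2 fold change was only 0.22 with an SE of 0.14 (adjusted p = 0.409, edgeR). The interval of -0.097 to 0.54 leaves no room for a doubling of its transcript. A change in the amount of beta-catenin protein was not measured.

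The symbol pattern also took in a pair of genes whose products are named for beta-catenin. The gene ctnnbl1 (ENSONIG00000009214), whose product in mammals is a partner of the splicing machinery and not a component of Wnt signaling, had 40.5, 64.5 and 41.3 CPM in the oPrl fish against 25.4, 23.8 and 24.9 CPM in the vehicle fish. Its groups did not overlap, and oPrl replicate 2 stood above the other oPrl fish. The log2 fold change was 0.98 with an SE of 0.21 (adjusted p = 0.0414, edgeR), but with a library left out it passed only without oPrl replicate 2, at 0.73 (adjusted p = 0.0372). The gene ctnnbip1, whose product in mammals keeps beta-catenin from binding Tcf factors, had 7.48, 10.9 and 9.84 CPM in the oPrl fish against 5.30, 5.43 and 3.21 CPM in the vehicle fish. Its groups did not overlap, and its log2 fold change of 1.02, with an SE of 0.29, was past the threshold by DESeq2 (adjusted p = 0.0132) and not by edgeR (adjusted p = 0.0937).

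The Tcf and Lef factors, which carry beta-catenin to DNA, did not pass the test. Expression of tcf7l1a, which in vertebrates acts mainly as a repressor, was 58.3, 41.7 and 66.1 CPM in the oPrl fish against 32.5, 40.9 and 27.7 CPM in the vehicle fish. Its groups did not overlap, although oPrl replicate 2 lay less than 1 CPM above vehicle replicate 2, and its log2 fold change was 0.71 with an SE of 0.23 (adjusted p = 0.124, edgeR). For lef1 the values were 5.95, 5.40 and 6.45 CPM in the oPrl fish against 3.0, 4.03 and 5.85 CPM in the vehicle fish, which overlapped, at a log2 fold change of 0.47. For tcf7 and tcf7l2 the log2 fold changes were -0.10 and 0.023, whose signs turned under another scaling, with intervals of -0.64 to 0.44 and -0.35 to 0.39.

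Of the 10 Frizzled receptors, 9 had a log2 fold change above 0, under TMM, DESeq2's size factors and library totals alike. Under TMM 51.5% of all genes were above 0, and 55.4% of genes averaging 1 CPM or more, as all 10 receptors did. None of the 10 passed edgeR's test (adjusted p from 0.0823). The groups did not overlap, with oPrl above, in 4 of the 10, fzd1, fzd2, fzd5 and fzd7b, compared with 16.3% of all genes. Among genes averaging 1 CPM or more this held for 3599 of 17629. Expression of fzd2 was 33.5, 33.3 and 33.8 CPM in the oPrl fish against 19.1, 25.9 and 18.1 CPM in the vehicle fish, and the oPrl fish were almost level with each other. This was a log2 fold change of 0.67 with an SE of 0.18 (adjusted p = 0.0823, edgeR; 0.0150 by DESeq2). For its close relative fzd1 this was 0.55 (adjusted p = 0.224, edgeR), and for fzd7b it was 0.55 (adjusted p = 0.211). These receptors form 1 subfamily, and their differences lay within a standard error of each other.

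The largest log2 fold change among the Frizzled genes was that of fzd5, at 1.70 with an SE of 0.47. Its levels were low, with 1.83, 1.97 and 1.61 CPM in the oPrl fish against 0.729, 0.653 and 0.254 CPM in the vehicle fish, or 62, 64 and 57 counts with oPrl and 18, 23 and 5 counts with vehicle. The groups did not overlap, and the gene passed DESeq2 (adjusted p = 0.00880) but not edgeR (adjusted p = 0.0843). The related receptors fzd8a and fzd8b overlapped between the groups. For fzd8a the values were 3.79, 1.17 and 4.98 CPM in the oPrl fish against 1.09, 1.90 and 1.17 CPM in the vehicle fish, and for fzd8b they were 9.97, 2.33 and 9.93 CPM in the oPrl fish against 4.01, 5.77 and 5.04 CPM in the vehicle fish. In both, oPrl replicate 2 was at the level of the vehicle fish or below it, while oPrl replicates 1 and 3 stood above every vehicle fish.

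The receptor that pointed the other way was fzd10, with 5.24, 3.75 and 4.67 CPM in the oPrl fish against 5.46, 6.56 and 6.87 CPM in the vehicle fish, where all oPrl fish lay below all vehicle fish. Its log2 fold change of -0.47, with an SE of 0.25, did not pass the test (adjusted p = 0.331, edgeR). For fzd6, which is known for its role in planar cell polarity, the values were 54.4, 50.1 and 49.5 CPM in the oPrl fish against 44.6, 46.6 and 51.8 CPM in the vehicle fish, and the interval of its log2 fold change was -0.22 to 0.43. The groups also overlapped in fzd3a and fzd4, at log2 fold changes of 0.46 and 0.53.

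**Figure D3:**
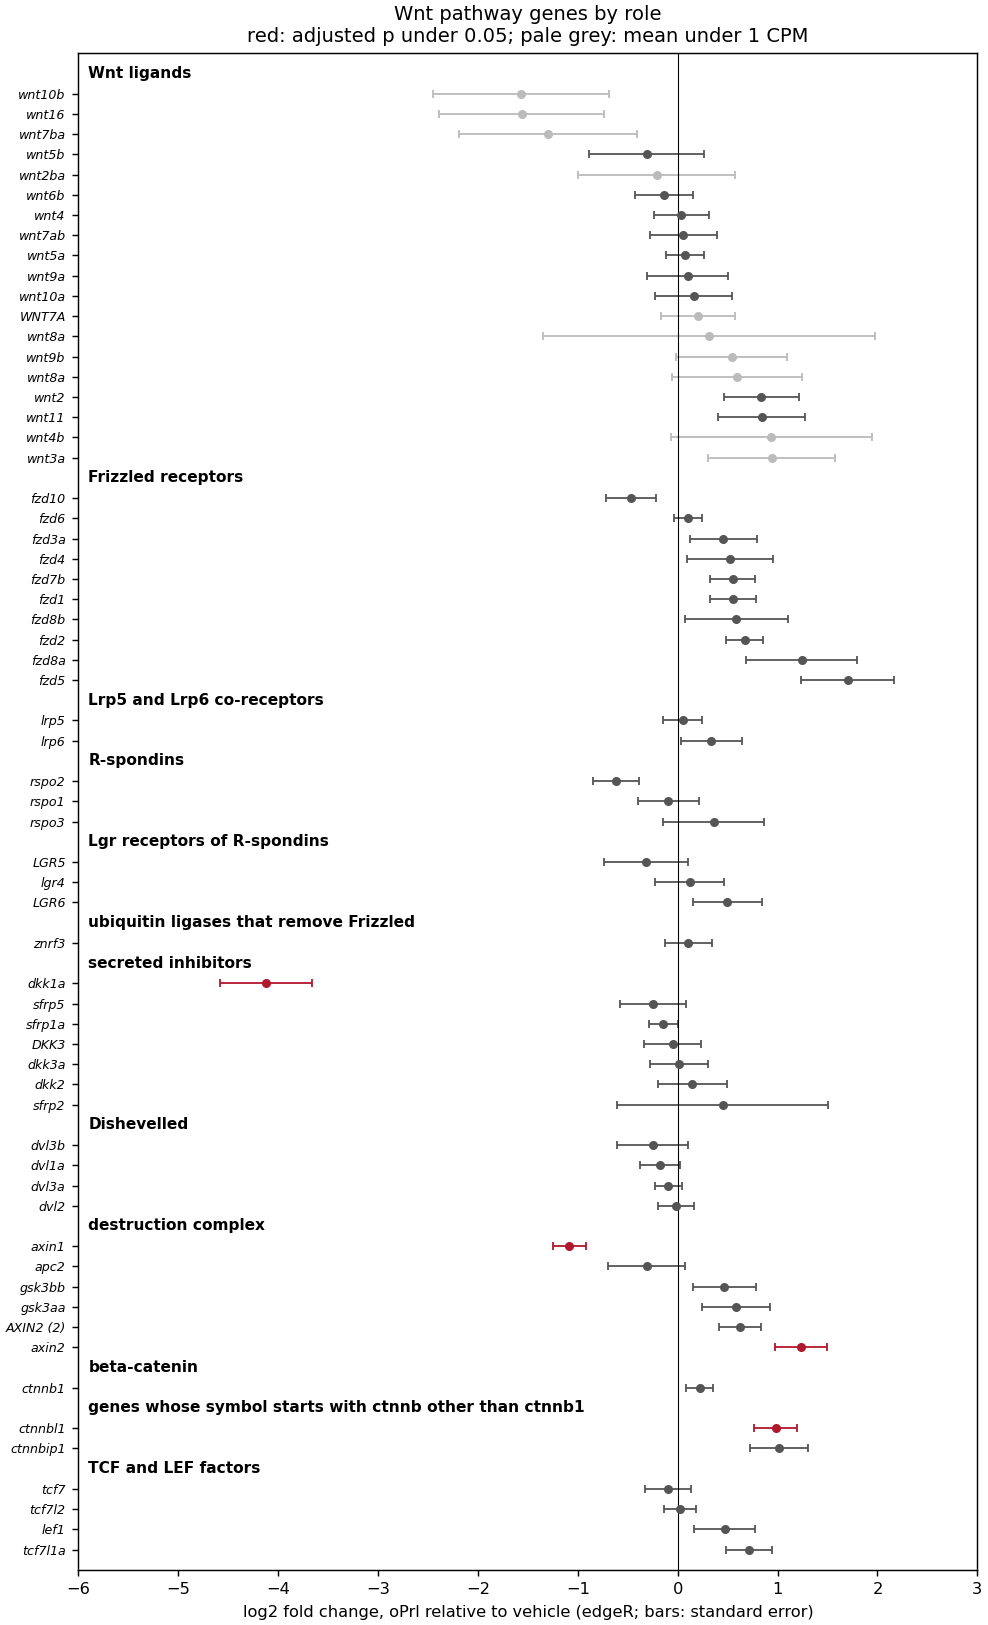
Log2 fold change of oPrl relative to vehicle (horizontal axis) with its standard error (bars) for each of the 62 Wnt pathway genes, grouped by role; red marks an adjusted p under 0.05 and pale grey a mean under 1 CPM, and AXIN2 (2) is the second axin2 copy. The gene dkk1a stands apart at -4.12, and axin1 and axin2 lie on opposite sides of 0. To the right of 0 lie 9 of 10 Frizzled genes, compared with 51.5% of all genes and 55.4% of those averaging 1 CPM or more.

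The 19 Wnt ligand genes showed no change that passed the test, and in all 19 the groups overlapped. Of these, 10 had a mean under 1 CPM, where few counts limit what could be seen. Expression of wnt5a, which in vertebrates signals mainly without beta-catenin, was 145, 102 and 145 CPM in the oPrl fish against 108, 139.6 and 124 CPM in the vehicle fish. Its log2 fold change was 0.072 with an interval of -0.37 to 0.51, so a doubling was not compatible with the spread of these fish. For wnt4, the interval was -0.61 to 0.68, around a log2 fold change of 0.035.

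Among ligands averaging 1 CPM or more the largest difference was that of wnt11, another ligand known mostly for polarity and cell movement, with 11.9, 11.2 and 6.53 CPM in the oPrl fish against 4.29, 9.03 and 3.10 CPM in the vehicle fish. The fish overlapped because vehicle replicate 2 lay above oPrl replicate 3, and the log2 fold change of 0.84, with an SE of 0.44, did not pass (adjusted p = 0.322, edgeR). Expression of wnt2, a ligand of the canonical branch, was 8.64, 3.81 and 8.43 CPM in the oPrl fish against 4.94, 3.38 and 3.36 CPM in the vehicle fish, with oPrl replicate 2 inside the range of the vehicle fish, at a log2 fold change of 0.84 (adjusted p = 0.247, edgeR). The remaining ligands at that level, wnt5b, wnt6b, wnt7ab, wnt9a and wnt10a, had log2 fold changes between -0.31 and 0.16. A pair of genes is listed as wnt8a, and one of them (ENSONIG00000017615) had counts in only 2 of 6 libraries, 6 in oPrl replicate 3 and 4 in vehicle replicate 2.

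The co-receptor genes lrp5 and lrp6 did not pass the test, and their groups overlapped. Expression of lrp5 was 52.1, 40.6 and 48.6 CPM in the oPrl fish against 47.4, 54.0 and 35.3 CPM in the vehicle fish, and its log2 fold change was 0.049 with an interval of -0.42 to 0.51. For lrp6 the values were 17.7, 18.4 and 15.7 CPM in the oPrl fish against 17.7, 15.5 and 7.73 CPM in the vehicle fish, with vehicle replicate 3 far below the other fish, and the interval was -0.37 to 1.05.

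Of the R-spondins, rspo2 had 10.6, 7.86 and 9.48 CPM in the oPrl fish against 14.0, 11.4 and 17.5 CPM in the vehicle fish, with all oPrl fish below all vehicle fish. This was a log2 fold change of -0.61 with an SE of 0.23 (adjusted p = 0.180, edgeR). The groups overlapped in rspo1 and rspo3, at -0.093 and 0.36, the former turning sign with library totals as the scale. The level of rspo3 varied more within the groups than between them, from 5.28 to 17.5 CPM among oPrl fish and from 6.0 to 15.7 CPM among vehicle fish.

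The R-spondin receptor genes overlapped between the groups as well. For LGR5, a marker of stem cells in several mammalian epithelia, the values were 14.3, 13.6 and 11.7 CPM in the oPrl fish against 20.2, 22.7 and 6.46 CPM in the vehicle fish, and vehicle replicate 3 stood apart below the others. Here the log2 fold change was -0.32 with an SE of 0.42 (adjusted p = 0.720, edgeR). With single libraries left out it ran from -0.69 without vehicle replicate 3 (adjusted p = 0.0733) to -0.034 without vehicle replicate 2 (adjusted p = 0.979). It passed in no such fit. Log2 fold changes were 0.50 for LGR6 (adjusted p = 0.461, edgeR) and 0.12 for lgr4 (adjusted p = 0.884). The ubiquitin ligase gene znrf3, whose product removes Frizzled from the membrane, had 11.8, 12.1 and 12.4 CPM in the oPrl fish against 13.1, 12.6 and 7.94 CPM in the vehicle fish, at a log2 fold change of 0.11 with an interval of -0.44 to 0.65.

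The Dishevelled genes, which relay the signal from Frizzled, had small log2 fold changes of -0.18 for dvl1a, -0.020 for dvl2, -0.095 for dvl3a and -0.25 for dvl3b, and those of dvl2 and dvl3a were above 0 with library totals as the scale. None passed the test (adjusted p 0.661 or more, edgeR). In dvl3a all oPrl fish lay just below all vehicle fish, with 36.0, 38.0 and 38.7 CPM in the oPrl fish against 39.0, 42.2 and 39.2 CPM in the vehicle fish, and the interval of its log2 fold change was -0.41 to 0.22.

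Paralogs whose symbols differ only in a final a or b were compared by their log2 ratio within each library, for 3 pairs with at least 1 CPM. Before the ratio was taken, 0.5 CPM was added to each level, which shrinks the ratios of weakly expressed genes. Nothing was added in the Axin ratios. The fzd8a to fzd8b ratio was -1.29, -0.77 and -0.93 with oPrl and -1.50, -1.38 and -1.73 with vehicle, so that fzd8a held a larger part of the pair in every oPrl fish (two-sided exact permutation test, p = 0.1, the smallest that 3 fish against 3 allow, and 0.3 adjusted over 3 pairs). For dvl3a to dvl3b and for wnt5a to wnt5b the groups overlapped (exact permutation p = 1 and 0.3, adjusted 1 and 0.45).

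Several members are known in vertebrates as targets that beta-catenin itself activates, namely both axin2 copies, lef1, tcf7, LGR5, znrf3 and dkk1a. Of these, axin2 rose and dkk1a fell, and the others did not pass the test, with log2 fold changes of 0.62 for AXIN2 (groups not overlapping), 0.47 for lef1, 0.11 for znrf3, -0.10 for tcf7 and -0.32 for LGR5. Outside the members, 11 genes of a list of such targets were tested, and 1 rose (9.09%, compared with 3.28% of all genes) and none fell by edgeR at an adjusted p under 0.05 (2.83% of all genes). At an unadjusted p under 0.05, 5 were higher (45.5%, compared with 11.6%) and 2 lower (18.2%, compared with 10.1%). Of those 5, sp5 had 0.47 CPM at most, near the floor. Another, sp8b, had 6.08 CPM in oPrl replicate 2 but 1.33 and 0.93 CPM in oPrl replicates 1 and 3. DESeq2 gave 1 higher (9.09%, compared with 6.65%) and 2 lower (18.2%, compared with 6.68%). The gene that rose was bambia (ENSONIG00000003743), encoding a membrane inhibitor of TGF-beta signaling, with 92.7, 76.1 and 93.6 CPM in the oPrl fish against 47.6, 51.1 and 44.8 CPM in the vehicle fish. The increase on the log2 scale was 0.87 with an SE of 0.15 (adjusted p = 0.0188, edgeR), and it passed without oPrl replicate 2 and without vehicle replicate 3 but not with any other library left out (adjusted p up to 0.0942).

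The median log2 fold change of the 11 targets was 0.71, compared with 0.02 over all genes, and 9 of them were above 0 (81.8%, compared with 51.5%). The list was chosen with earlier results of these data known, so its median and shares only describe the list. Expression of myca was 15.5, 20.5 and 23.1 CPM in the oPrl fish against 13.9, 13.5 and 8.60 CPM in the vehicle fish, and that of ccnd1, a cyclin, was 4.67, 4.55 and 4.64 CPM in the oPrl fish against 4.21, 3.32 and 2.09 CPM in the vehicle fish. Neither overlapped between groups and neither passed the test (adjusted p = 0.157 and 0.400, edgeR). In the other direction, notum1a, which encodes a secreted enzyme that inactivates Wnt ligands, had 6.57, 7.12 and 9.11 CPM in the oPrl fish against 15.9, 10 and 25.0 CPM in the vehicle fish, without overlap, at a log2 fold change of -1.16 (adjusted p = 0.104, edgeR; 0.0139 by DESeq2). For sp8a the log2 fold change was -1.62 and for sp8b 1.98, with overlapping groups in both (adjusted p = 0.183 and 0.211, edgeR). DESeq2 gave adjusted p values of 0.0419 for sp8a and 0.0775 for sp8b.

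A list of other pathway genes, also chosen with earlier results of these data known, was read beside the members. It covered secretion, extracellular modulators, alternative receptors, kinases and nuclear cofactors. Of 50 such genes tested, 3 of them shared with the targets, 3 fell (6%, compared with 2.83% of all genes) and none rose (3.28% of all genes) by edgeR. At an unadjusted p under 0.05, 8 were lower (16%, compared with 10.1%) and 7 higher (14%, compared with 11.6%), and DESeq2 gave 5 lower (10%, compared with 6.68%) and 2 higher (4%, compared with 6.65%). Their median log2 fold change was near 0, and 8 lay wholly above and 11 wholly below the vehicle fish (16% and 22%, compared with 16.3% and 12.7% of all genes).

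The largest fall in that list was in sost (ENSONIG00000036894), which encodes sclerostin, like Dkk1 a secreted antagonist that binds Lrp5 and Lrp6 in mammals. Its level was 19.0, 13.2 and 15.7 CPM in the oPrl fish against 61.2, 72.4 and 65.0 CPM in the vehicle fish, and the groups lay far apart. The log2 fold change was -2.05 with an SE of 0.19 (adjusted p = 0.00322, edgeR), a 4.14-fold fall. With single libraries left out it stayed between -2.20 and -1.93 and passed an adjusted p of 0.05 in all 6 fits (adjusted p 0.00559 to 0.0242). Thus a pair of genes for secreted antagonists of the same co-receptors, dkk1a and sost, fell, while lrp5 and lrp6 did not pass the test. The Dickkopf gene dkk2 did not pass either, at a log2 fold change of 0.15 (adjusted p = 0.857, edgeR). The list held 12 genes for secretion and extracellular modulators, 4 above 0 and 8 below, and of these sost alone passed. Those above 0 were frzb, gpc3, APCDD1 and draxin, at 0.85, 0.78, 0.78 and 0.77, with overlapping groups in each. For kremen1 the groups overlapped as well, at -0.026. The gene sostdc1a, a relative of sost, overlapped between groups and had 12.7, 1.14 and 4.75 CPM in the oPrl fish against 6.88, 7.90 and 13.2 CPM in the vehicle fish.

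The gene prickle1b (ENSONIG00000016847), a component of the planar polarity branch, had 101, 98.0 and 83.2 CPM in the oPrl fish against 305, 261 and 274 CPM in the vehicle fish. Its log2 fold change was -1.57 with an SE of 0.15 (adjusted p = 0.00322, edgeR), and it passed in all 6 fits with a library left out (adjusted p 0.00725 to 0.0255). The gene listed as PRICKLE1 had a log2 fold change of the other sign, 1.32 with an SE of 0.40. It was past the threshold by DESeq2 (adjusted p = 0.0173) and not by edgeR (adjusted p = 0.108). Its values were 33.1, 11.1 and 31.5 CPM in the oPrl fish against 10.2, 11.5 and 8.55 CPM in the vehicle fish. There, oPrl replicate 2 lay among the vehicle fish, whereas oPrl replicates 1 and 3 were far above them.

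The corepressor gene TLE3 (ENSONIG00000013230), whose product binds Tcf factors in the absence of beta-catenin, had 41.3, 39.4 and 42.7 CPM in the oPrl fish against 78.5, 76.5 and 55.0 CPM in the vehicle fish. Its log2 fold change was -0.77 with an SE of 0.18 (adjusted p = 0.0476, edgeR), just past the threshold. It passed in only 1 of 6 fits with a library left out, that without vehicle replicate 3, and not with library totals as the scale (adjusted p = 0.109) or without a count filter (adjusted p = 0.0513). The Wnt secretion gene wls had 103, 129 and 89.3 CPM in the oPrl fish against 98.3, 120.2 and 108 CPM in the vehicle fish, with a log2 fold change of -0.022 and an interval of -0.44 to 0.39.

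Of 9 genes for nuclear cofactors, 4 lay above the vehicle range in all oPrl fish and 1, TLE3, below it, compared with 16.3% and 12.7% of all genes. Among the 17629 genes averaging 1 CPM or more, as all 9 did, 3599 lay above and 2499 below. The groups overlapped in the other 4, tle2b, tle5, hbp1 and tle3a, at log2 fold changes of 0.056, 0.14, -0.047 and -0.29. Those above were tle2a and bcl9, bcl9l and pygo2, and none of them passed the test. The products of bcl9, bcl9l and pygo2 join beta-catenin to the transcription machinery. Expression of bcl9 was 44.0, 52.0 and 48.8 CPM in the oPrl fish against 39.5, 39.1 and 24.1 CPM in the vehicle fish, a log2 fold change of 0.50 (adjusted p = 0.242, edgeR). Expression of pygo2 was 19.3, 19.8 and 16.3 CPM in the oPrl fish against 14.5, 13.6 and 8.85 CPM in the vehicle fish, a log2 fold change of 0.58 (adjusted p = 0.198, edgeR). In the same direction, the corepressor gene tle2a had a log2 fold change of 0.71 (adjusted p = 0.220), opposite in sign to TLE3.

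Among 11 genes for cytoplasmic kinases, scaffolds and turnover, none passed edgeR's test. At an unadjusted p under 0.05, 0 were higher and 2 lower, compared with 11.6% and 10.1% of all genes. DESeq2 gave 1 lower, compared with 6.68% of all genes. In 5 of these 11 genes, csnk1g1, csnk1g2a, csnk1g2b, CSNK1D and fbxw11a, all oPrl fish lay below all vehicle fish, compared with 12.7% of all genes. Among genes averaging 1 CPM or more, as all 11 did, this held for 2499 of 17629. The gene CSNK1D, which encodes a casein kinase, had 38.7, 44.5 and 36.6 CPM in the oPrl fish against 68.9, 72.5 and 52.6 CPM in the vehicle fish, at a log2 fold change of -0.70 with an SE of 0.18 (adjusted p = 0.0647, edgeR; 0.00339 by DESeq2). For fbxw11a, whose product is a subunit of the ubiquitin ligase that marks beta-catenin for degradation, the values were 61.8, 69.4 and 66.9 CPM in the oPrl fish against 81.3, 81.1 and 90.5 CPM in the vehicle fish (log2 fold change -0.35, adjusted p = 0.183, edgeR).

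Other genes of planar polarity lay on both sides of 0. With prickle1b and PRICKLE1 included, the list held 18 genes for alternative receptors and planar polarity, 11 above 0 and 7 below. In 4 of the 18 all oPrl fish lay above all vehicle fish and in 3 below, compared with 16.3% and 12.7% of all genes. The gene listed as VANGL2 had 10.6, 13.5 and 11.6 CPM in the oPrl fish against 7.93, 8.52 and 6.31 CPM in the vehicle fish, without overlap, at a log2 fold change of 0.64 (adjusted p = 0.138, edgeR; 0.0493 by DESeq2). The gene vangl1 was lower in all oPrl fish, at -1.61 (adjusted p = 0.192, edgeR), but had 1.42 CPM at most. The gene listed as VANGL1, with means of 30.9 CPM for oPrl and 34.1 CPM for vehicle, overlapped between the groups, at -0.14. The gene written vangl2 was higher in all oPrl fish, at 1.22 (adjusted p = 0.216, edgeR), but had 1.66 CPM at most. All oPrl fish were lower in prickle3, at -0.57 (adjusted p = 0.202, edgeR). The alternative Wnt receptor genes ror1 and ryk were above the vehicle range in all oPrl fish, at 0.63 and 0.61 (adjusted p = 0.217 and 0.332, edgeR). The groups overlapped in ror2 and PTK7, at 0.16 and -0.037.

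**Figure D4:**
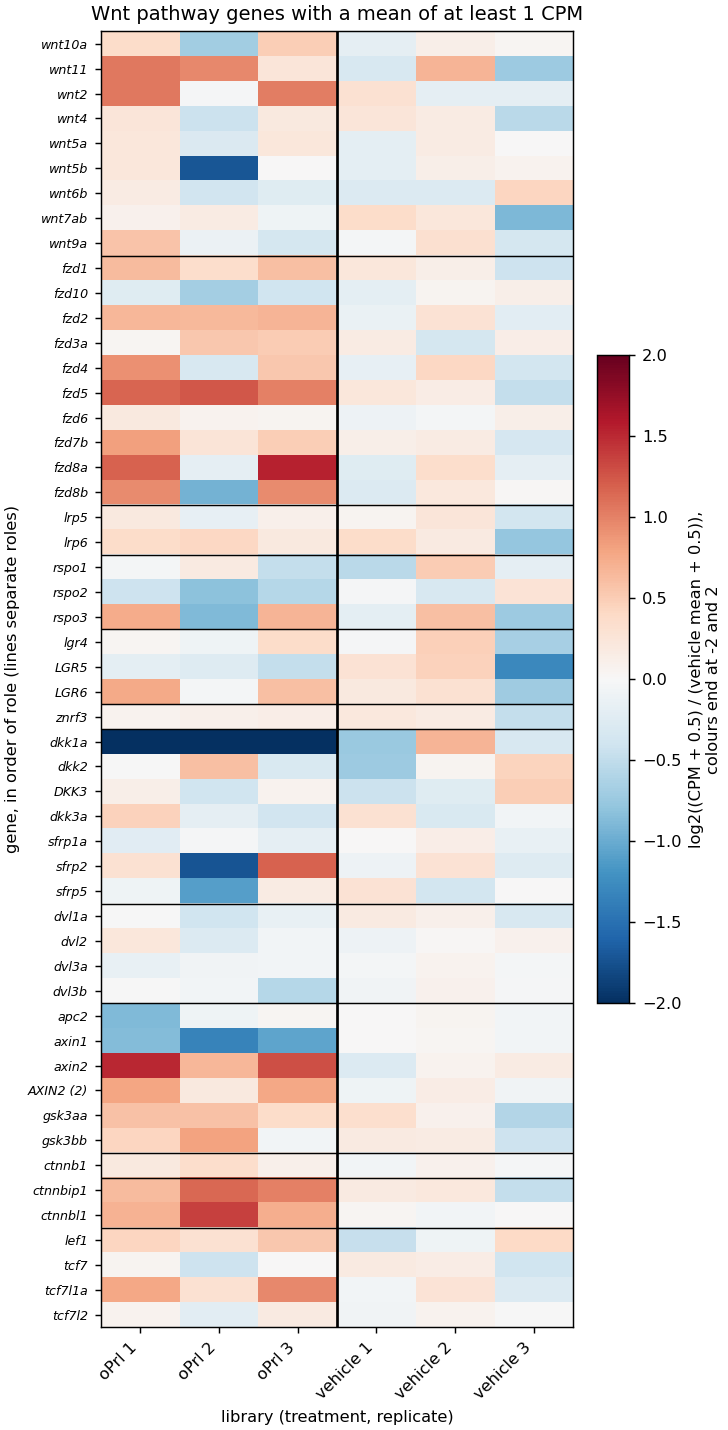
Level of each of 52 Wnt pathway genes averaging 1 CPM or more, in each library, as log2 of (CPM + 0.5) over (vehicle mean + 0.5), with red above and blue below the vehicle mean, colours ending at -2 and 2, and lines between roles. The dkk1a row is dark blue in all 3 oPrl libraries, and oPrl replicate 2 is paler or bluer than oPrl replicates 1 and 3 in rows such as wnt5b, fzd8a, fzd8b, rspo3 and sfrp2.

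Libraries of a group differed in how often they were the lowest or highest among the members. Among 52 members averaging 1 CPM or more, 31 (59.6%) were lowest among the oPrl fish in replicate 2, compared with 35.9% of all genes at that level, and 27 (51.9%) were highest in replicate 1, compared with 27.0%. Among the vehicle fish, replicate 2 was highest in 28 members (53.8%, compared with 32.3%), and replicate 3 was lowest in 27 (51.9%, compared with 40.1%). In 8 of the 52 (15.4%, compared with 5.21% of all genes) oPrl replicate 2 had under 50% of the level of either other oPrl fish, namely wnt2, wnt5b, wnt10a, fzd8a, fzd8b, rspo3, sfrp2 and sfrp5. In vehicle replicate 3 this held for 3 members, wnt7ab, fzd5 and LGR5, and no library but oPrl replicates 1 and 2 and vehicle replicate 3 had any. These counts were made after the values had been seen and are descriptions of single libraries.

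Summed markers of other gill cell types differed in oPrl replicate 2 as well, though not every gene of a list shared the direction. Endothelial genes (5) summed to 184 CPM there, to 395 in oPrl replicate 1 and to 443 in oPrl replicate 3, with 242 to 310.0 CPM in vehicle fish, and 2 of the 5 were lowest and 2 highest in oPrl replicate 2 among the oPrl fish. Fibroblast and mesenchyme genes (9) summed to 983 CPM there, to 2194 in oPrl replicate 1 and to 1704 in oPrl replicate 3, with 992 to 2199 CPM in vehicle fish, and 7 of the 9 were lowest and 2 highest in oPrl replicate 2. Epithelial genes (8) went the other way, summing to 10489 CPM there and to 6637 and 6735 CPM in oPrl replicates 1 and 3. No marker of these lists was at 0 in any library. The part of these cell types in the low members of oPrl replicate 2 was not tested. Without that library the median log2 fold change of the members was 0.22 and 3 members rose, axin2, AXIN2 and ctnnbl1, and 2 fell.

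**Figure D5:**
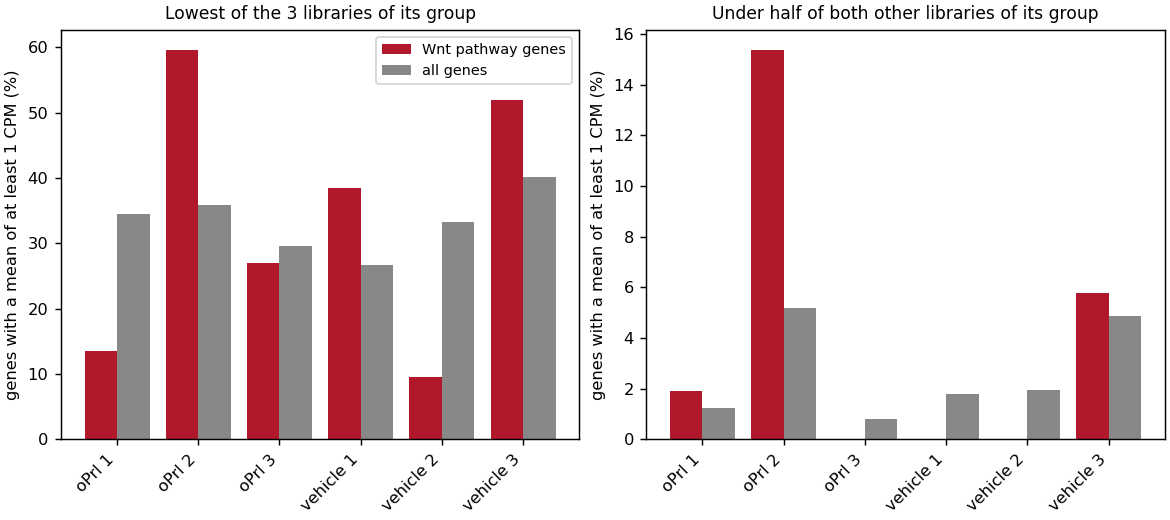
Share (%, vertical axes from 0) of genes averaging 1 CPM or more that were lowest among the 3 libraries of their group (left) or under 50% of both other libraries of their group (right), in each library, for 52 Wnt pathway genes (red) and all genes at that level (grey). In oPrl replicate 2 the red bars reach 59.6% and 15.4%, above the grey bars at 35.9% and 5.21%.

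Between the treatments, 2 marker lists did not overlap. Ionocyte genes (6, matched to a list of 8 names) summed to 1574 to 2313 CPM in oPrl fish and to 3139 to 4587 CPM in vehicle fish. Of these 6 genes 1 fell, compared with 2.83% of all genes. It was atp1a1b, which encodes a Na+/K+-ATPase subunit (log2 fold change -1.15, adjusted p = 0.0123, edgeR). DESeq2 gave 2 lower, compared with 6.68% of all genes, namely atp1a1b and the carbonic anhydrase gene ca2 (-1.80 by edgeR), which make up most of the sum. The groups overlapped in cftr, slc12a2, rhcgb and foxi3b, the last at a log2 fold change of 0.19. Epithelial genes (8, from 7 names) summed to 6637 to 10489 CPM in oPrl fish and to 11581 to 12636 CPM in vehicle fish, and none of the 8 passed the test. Most of that sum came from krt5, krt8 and epcam, at log2 fold changes of -0.81, -0.56 and -0.51. In tp63 all oPrl fish lay above all vehicle fish, at 0.65. Of the 8 genes, 4 were above 0 and 4 below, with a median of 0.0047. At an unadjusted p under 0.05, 1 was higher and 3 lower, compared with 11.6% and 10.1% of all genes. DESeq2 gave 1 higher and 2 lower, compared with 6.65% and 6.68% of all genes. The part of these cell types in the results, the falls of dkk1a, axin1 and TLE3 included, was not tested. The summed levels overlapped for 6 leukocyte genes, at 1524 to 1734 and 1577 to 1970.4 CPM, for 5 erythrocyte genes, at 197 to 511 and 243 to 470.4 CPM, for 10 cartilage genes, at 211 to 321 and 199 to 213 CPM, and for 11 skeletal muscle genes, at 56.2 to 112 and 6.59 to 289 CPM. The muscle sum was lowest in vehicle replicate 2 and highest in vehicle replicate 3, and the endothelial and mesenchymal lists also overlapped between the groups. No marker gene was at 0 in any library, save 1 muscle gene that was at 0 in at least 1.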

How the data were processed

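Gill filament RNA from 6 hypophysectomized tilapia, 3 per treatment, was sequenced as paired reads. The authors demultiplexed with bcl2fastq 2.20, trimmed with Trimmomatic 0.36, mapped with STAR 2.5.2b to the Nile tilapia genome, a related species, and deposited raw counts per gene, made by featureCounts from uniquely mapped reads. Neither genome build nor strandedness was stated in the sources used here, so reads of overlapping antisense genes could not be told apart. A row without a gene ID took 0.0901% to 0.135% of the counts and was left out.

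Of 32591 genes, 17210 had a symbol, and 24878 with at least 10 counts in total were fitted together by edgeR 4.0.16 (R 4.3.3, TMM, quasi-likelihood, Benjamini-Hochberg). The SE is the absolute log2 fold change over the square root of the F statistic. DESeq2 1.42.0, the tool of the study, was an alternative, as were other normalizations, other count filters, robust dispersion, a block for replicate number and fits without single libraries. Libraries of a group differed by more than sampling noise (chi-square per degree of freedom 26.3 to 98.6).

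Named were members with an adjusted p under 0.05, the largest change per role at a mean of at least 1 CPM, the core of the beta-catenin branch, and list genes with an adjusted p under 0.05, and other genes named were picked after their values were seen. The members and lists were chosen with earlier results of these data known. A list name took in any symbol that added a paralog letter to it. Gene length and coordinates were not used.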

Additional observations from a re-analysis of the deposited data

How the results depend on the processing

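Direction held for dkk1a, axin1, axin2, ctnnbl1, sost, prickle1b, TLE3 and bambia in every alternative run. DESeq2 gave 5 members higher in place of 2, 4 members at the study's thresholds in place of 1 (fzd5, dkk1a, axin1 and axin2), 7 other pathway genes in place of 3, and 3 targets in place of 1. With a library left out, the members higher numbered 0 to 3, those lower 1 to 2, and those at the study's thresholds 0, while the targets numbered 0 to 2, the other pathway genes 2 to 4, and the paralog pairs without overlap 1 to 2. The median log2 fold change of the members stayed between 0.11 and 0.22 in those fits. With library totals it was 0.30, and that of all genes moved from 0.02 to 0.19.

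With the replicate number as a block, 0 members were higher, 2 lower and 0 at the study's thresholds, and 0 targets passed, while all genes past an adjusted p of 0.05 numbered 700 in place of 1520. The labels do not say whether replicate numbers pair the fish. Correlations of deviations between same-numbered libraries were -0.112, -0.0138 and 0.00814 over all genes, which cannot exclude a pairing that touched few genes. The block is given as an alternative and is no main result. Under it axin2 and ctnnbl1 had log2 fold changes of 1.20 and 0.95.

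Signs turned only in genes that did not pass. With library totals they turned in wnt6b, rspo1, DKK3 and sfrp1a and in dvl2 (0.16), dvl3a (0.076) and tcf7 (0.076), and with DESeq2's size factors in edgeR, or DESeq2 itself, in dkk3a and in tcf7l2 (-0.010 and -0.010). With libraries left out, among the named genes of each role and the core of the pathway, lrp5 reached -0.096, lgr4 -0.13, znrf3 -0.082, dvl2 0.094, tcf7 0.035 and tcf7l2 -0.063, at the other end staying at 0.16, 0.43, 0.22, -0.16, -0.26 and 0.13. The causes were not tested. Depth limits the 10 ligands under 1 CPM and fzd5.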
